A study of Homo sapiens with 15 samples.

Results

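In SNB19 cells, a human glioblastoma line, the second library of each lentiviral construct was set against the first library of the same construct. The libraries were chosen by the replicate number in their titles and paired by construct, which took 10 of the 15 libraries of the study and gave 5 pairs. The constructs were the empty vector pCHMWS (EV) and pCHMWS with ZBTB18 in full length (FL), a mutant of the full length (FL-mut), the short form SF-Nte, and the short form with a mutation (SF-mut). All cells, controls included, had been transduced and grown in DMEM with 10% FBS, and each group is 1 cell line under 1 vector. The promoter that drives the inserts and the residues that the mutants alter are not given in the labels. Nor do the labels say what a replicate number marks (a culture, a transduction, an extraction or a sequencing day), so every p-value measures the spread between these libraries, which may be technical. Of 18485 gene symbols, 4922 had enough counts to be tested and 13563 were removed.

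ZBTB18 is a zinc finger transcriptional repressor of the developing brain whose loss is known in glioblastoma. Setting libraries of the same construct against each other asks how far libraries that carry the same label lie apart, whatever the construct does. In PCR-amplified Nanopore cDNA, length and GC content of a transcript can influence how well its cDNA is copied, and the labels name no molecular identifiers. Among the gene groups described, transcripts of mitosis are made around cell division, and ATF4 is the transcription factor that responds to a shortage of amino acids and to stress in the endoplasmic reticulum (ER).

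The total counts of the 5 replicate 1 libraries ranged from 597414 to 1930245, and those of the 5 replicate 2 libraries from 315693 to 1371908. Replicate 1 was deeper in every pair, by 1.41 times in EV, 1.73 in FL, 1.06 in FL-mut, 1.89 in SF-mut and 1.03 in SF-Nte, so depth runs with the replicate number. The barcode names in the labels differ between the 2 libraries of every pair, and those of SF-mut repeat EV names with a suffix. A list of 10 markers of glioblastoma lines, 7 of them tested, summed to between 7669 and 18726 CPM (counts scaled to a common library total) in replicate 1 and to between 6036 and 17607 CPM in replicate 2. Of that list S100A6 alone was at 1209 to 13760 CPM, while NES, SOX2 and CHI3L1 reached at most 33.5, 28.7 and 25.3 CPM. The astrocyte marker GFAP of the same list stayed under 10 CPM in all 10 libraries. Markers of neurons, immune cells and endothelium summed to at most 25.7, 29.8 and 16.3 CPM in these 10 libraries. Epithelial markers summed to between 15.8 and 36.9 CPM in replicate 1 and to between 15.3 and 155 CPM in replicate 2, with the 155 CPM in SF-mut replicate 2. The part of these markers in the results was not tested.

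The libraries labelled FL-mut replicate 2 and SF-mut replicate 2 stood apart from the rest. Over log2 CPM of the 4922 tested genes, Pearson's r between the 2 libraries of a pair was 0.89 in EV, 0.86 in FL, 0.77 in FL-mut, 0.70 in SF-mut and 0.86 in SF-Nte. The partner was the nearest library for EV replicate 2, FL replicate 2 and both SF-Nte libraries, which are 4 of the 10. FL-mut replicate 2 and SF-mut replicate 2 were nearest to each other, with r = 0.83. The next nearest to both was EV replicate 1, with r = 0.82 and 0.77. For SF-mut replicate 1 the partner was the farthest of the 9 other libraries. These correlations run across genes of the same 2 libraries, and genes are not independent replicates. Counts of genes and list members are therefore also given for the EV, FL and SF-Nte pairs alone.

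**Figure D1:**
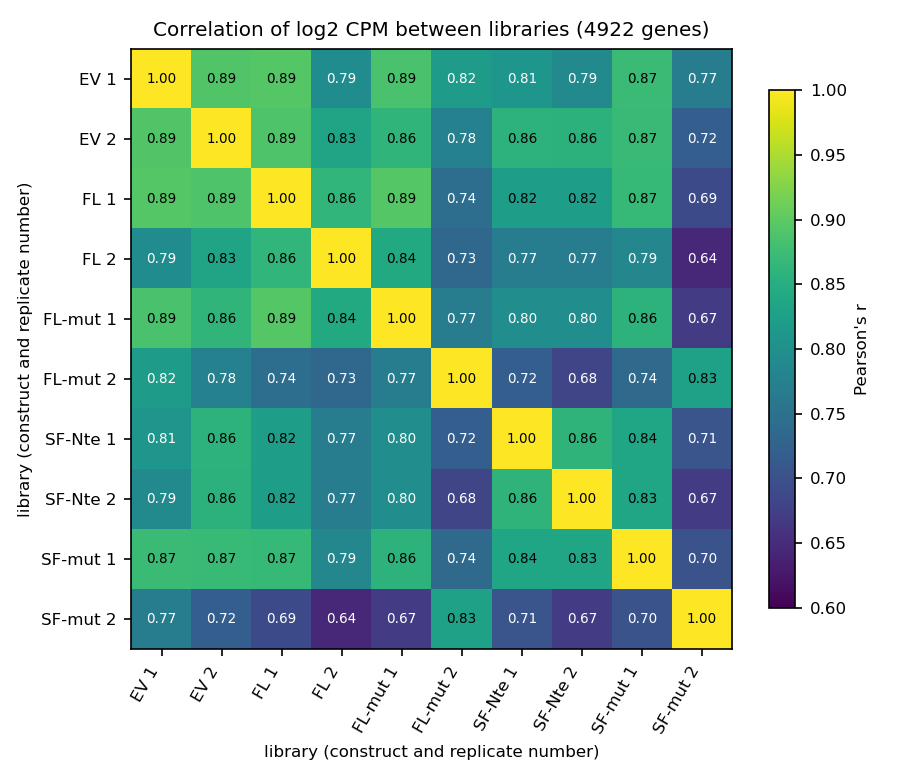
Pearson's r of log2 CPM between each 2 of the 10 libraries over 4922 genes, with libraries on both axes and r as colour and number. FL-mut 2 and SF-mut 2 have r = 0.83 with each other and r from 0.64 to 0.82 with the other libraries.

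The 2 libraries of a construct lay apart by very different amounts. The median absolute difference of a gene, as log2 CPM of replicate 2 minus replicate 1 with a prior count of 2, was 0.48 in EV, 0.57 in FL, 0.77 in FL-mut, 0.89 in SF-mut and 0.50 in SF-Nte. The shares of genes more than 2-fold apart were 19.9% in EV, 25.6% in FL, 38.1% in FL-mut, 45.8% in SF-mut and 24.6% in SF-Nte. They split into 8.39% higher and 11.5% lower in replicate 2 for EV, 12.5% and 13.1% for FL, 20.8% and 17.3% for FL-mut, 11.4% and 13.2% for SF-Nte, and 21.1% and 24.7% for SF-mut. The SF-mut pair had the shallowest library and was itself shifted, with a median difference of -0.17 and 44.3% of genes above 0, where the other pairs had 49.6% (EV), 50.8% (FL), 48.2% (FL-mut) and 46% (SF-Nte). Among genes with at least 100 counts in both libraries, the order of the pairs differed. The median absolute difference was then 0.17 in SF-Nte (688 genes), 0.37 in EV (1464 genes), 0.44 in FL (961 genes), 0.51 in FL-mut (921 genes) and 0.54 in SF-mut (446 genes). A chi-square statistic, averaged over genes, was 5.50 in SF-Nte and 26.0 to 43.9 in the others, against about 1 for sampling noise. Whether the 2 libraries of a pair came from the same RNA or cDNA was not tested.

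ZBTB18, the gene carried by 4 of the 5 vectors (chr1:244048939-244057476 in GRCh38, plus strand), was measured in every library as a check of the labels. Its levels in replicate 1 were 7.25, 649, 935, 479.6 and 892 CPM (scaled by TMM, the trimmed mean of M values) in EV, FL, FL-mut, SF-Nte and SF-mut, and those in replicate 2 were 4.51, 3249, 2874, 205 and 3859 CPM. Both EV libraries lay below all 8 libraries of the ZBTB18 vectors, which matches the labels on that point. A count for the whole gene does not show which of the 4 ZBTB18 vectors a library carries. Within the vectors the level was not even: replicate 2 held 4.99 times the level of replicate 1 in FL, 3.07 times in FL-mut and 4.32 times in SF-mut, and 0.43 times in SF-Nte. The fitted difference over the 5 pairs was 1.04 ± 0.57 (log2 ± SE) and did not pass the test (adjusted p = 0.70). Counts of ZBTB18 were all even numbers, as were those of CTH, FOSL2 and NDUFS5 below, and 132 tested genes had counts that share a divisor above 1. The sources used here give no reason for it.

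No gene passed the test of replicate 2 against replicate 1 over the 5 pairs. With edgeR's quasi-likelihood test, construct and replicate number as terms and Benjamini-Hochberg adjustment, 0 of 4922 genes (0%) were called higher and 0 (0%) lower, with a lowest adjusted p of 0.70. At an unadjusted p under 0.05 there were 343 genes (6.97%), of which 143 (2.91%) were higher and 200 (4.06%) lower in replicate 2. The biological coefficient of variation was 0.49. In the same 10 libraries, the test of any difference between constructs called 1 gene (0.0203%), S100A4, with 388 (7.88%) at an unadjusted p under 0.05. Without the FL-mut and SF-mut pairs the count of called genes was again 0 of 5773 (0%), and at an unadjusted p under 0.05 there were 131 higher (2.27%) and 176 lower (3.05%). Limma voom called 0 genes and DESeq2 called 18, 15 of them higher and 3 lower in replicate 2. The 18 were BEX2, NUPR1, ASS1, GRN, SAT1, HERPUD1, DDIT3, RNF130, TIMM50, LEMD1, BLVRB, CD63, PHGDH, NPC2 and PDLIM2 (higher) and PEG10, FOXJ3 and AURKA (lower).

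Direction alone was counted without a test. The log2 difference had the same sign in all 5 pairs for 470 genes (9.55%), 163 higher (3.31%) and 307 lower (6.24%) in replicate 2. With each pair centred at its own median the split was 205 to 266 (4.16% and 5.4%). In the EV, FL and SF-Nte pairs alone, 675 genes (13.7%) were higher in all 3 and 767 (15.6%) lower. More than 2-fold in all 5 pairs were HLA-DMA and GPR1 (higher, 0.0406%) and ARHGAP11A and PPP5C (lower, 0.0406%). All 4 were below 100 CPM in every library. An exact two-sided sign permutation over 5 pairs cannot reach a p of 0.05, so none of these directions has a test of its own.

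The genes of lowest p with 1 direction in all 5 pairs are given as values, since none passed. BEX2 (chrX:103309346-103311046, minus strand), a gene of the brain-expressed X-linked family, stood at 14.5, 28.3, 17.7, 23.6 and 12 CPM in replicate 1 of EV, FL, FL-mut, SF-Nte and SF-mut and at 65.5, 302, 146, 25.1 and 81.9 CPM in replicate 2. Replicate 2 was several times replicate 1 in 4 pairs and level with it in SF-Nte, where the difference was 0.08. The fitted difference was 2.38 ± 0.52 (adjusted p = 0.70). SAT1, which acetylates spermidine and spermine for their breakdown, was at 72, 90.7, 203, 529 and 227 CPM in replicate 1 and at 215, 762, 408, 736 and 711 CPM in replicate 2, higher in each pair although the ranges overlap. NUPR1, a small stress-response protein of the nucleus, was at 15, 21.2, 5.21, 60.9 and 18.8 CPM and then 72.2, 92.2, 182, 86.9 and 252 CPM, with its widest gaps in FL-mut and SF-mut and its narrowest in SF-Nte. HLA-DMA, a chain of the peptide exchanger for class II antigens, was at 3.11, 4.25, 0, 11.8 and 0 CPM in replicate 1 and 31.6, 14.5, 13.9, 81.1 and 19.7 CPM in replicate 2; it lies across BRD2 on the other strand, and without strand its reads cannot be told apart from those of that gene.

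Proteins of lysosomes and related vesicles were among the higher ones. CD63, a tetraspanin of late endosomes and lysosomes, was at 680.2, 495, 1409.7, 773 and 583 CPM in replicate 1 and 1205, 2502, 3246, 880.3 and 1681 CPM in replicate 2. NPC2, which carries cholesterol out of the lysosome, was at 355, 436, 351, 995 and 550.5 CPM and then 1312, 1246, 884, 1139 and 803 CPM. Both were higher in every pair, by at most 0.20 (log2) in SF-Nte and by 0.54 or more in the other 4. Fitted differences were 1.21 ± 0.29 for CD63 and 1.10 ± 0.28 for NPC2. Of 28 tested members of a list of lysosomal proteins drawn up after these values were seen, 7 had an unadjusted p under 0.05 and a higher level in replicate 2 and 0 a lower one, beside 2.91% and 4.06% of all genes. In the EV, FL and SF-Nte pairs alone 2 of 29 were higher and 0 lower. Of the 28, 6 are among the genes, described further on, that were more than 4-fold higher in both FL-mut and SF-mut. Those genes are 4.37% of all tested genes. TIMM50, of the inner mitochondrial membrane import machinery, had a fitted difference of 1.34 ± 0.32, and CTH, which makes cysteine from cystathionine, one of 2.71 ± 0.70.

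Among the lower genes, PEG10 had the lowest p of the whole table. PEG10 (chr7:94656325-94669695, plus strand) is an imprinted gene derived from a retrotransposon, and it overlaps SGCE on the other strand. Its levels were 55.9, 191, 124, 66.8 and 97.4 CPM in replicate 1 and 12.8, 65.9, 23.2, 32.8 and 29.5 CPM in replicate 2. Replicate 2 was lower in each pair, by 0.98 in SF-Nte and by 1.50 to 2.31 in the others, and the ranges overlap because FL replicate 2 lies above EV replicate 1. The fitted difference was -1.76 ± 0.34 with an unadjusted p of 6.4e-04 and an adjusted p of 0.70. NME1, a nucleoside diphosphate kinase that shares sequence with the readthrough gene NME1-NME2, was at 3576, 2659, 3197, 3062 and 3344 CPM and then 2187, 1075, 1183, 2695 and 1432 CPM. PKM, pyruvate kinase of glycolysis, was at 10971, 5415, 10565, 9030.2 and 14106 CPM and then 7659, 2768, 7691, 4017 and 10391 CPM, lower in each pair by 0.44 to 1.17.

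The cell division genes AURKA, CDCA8 and ARHGAP11A were lower in replicate 2 of all 5 pairs. AURKA, a kinase of the mitotic spindle, was at 414, 434, 477, 460.0 and 589.8 CPM in replicate 1 and 248, 221, 125, 270.3 and 262 CPM in replicate 2. For CDCA8, a subunit of the chromosomal passenger complex, the levels were 84.4, 98.4, 125, 47.2 and 121 CPM and then 42.1, 39.5, 46.5, 27 and 45.9 CPM. Fitted differences were -1.11 ± 0.24 for AURKA, -1.19 ± 0.31 for CDCA8 and -1.75 ± 0.45 for ARHGAP11A. The transcription factors FOXJ3 and TCF4 had fitted differences of -1.80 ± 0.41 and -1.56 ± 0.39. FOXJ3 was at 945 CPM in EV replicate 1 against 97.1 CPM in replicate 2 and at 248 against 57.9 CPM in SF-Nte, whereas its other 6 libraries lay between 19.7 and 51.3 CPM. In the fit without the FL-mut and SF-mut pairs, the differences of the higher of these 16 genes ran from 1.04 for TIMM50 to 2.63 for HLA-DMA. Those of the lower ran from -0.75 for NME1 to -2.22 for FOXJ3. Their signs are no separate result, since the genes were chosen for 1 direction in all 5 pairs.

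**Figure D2:**
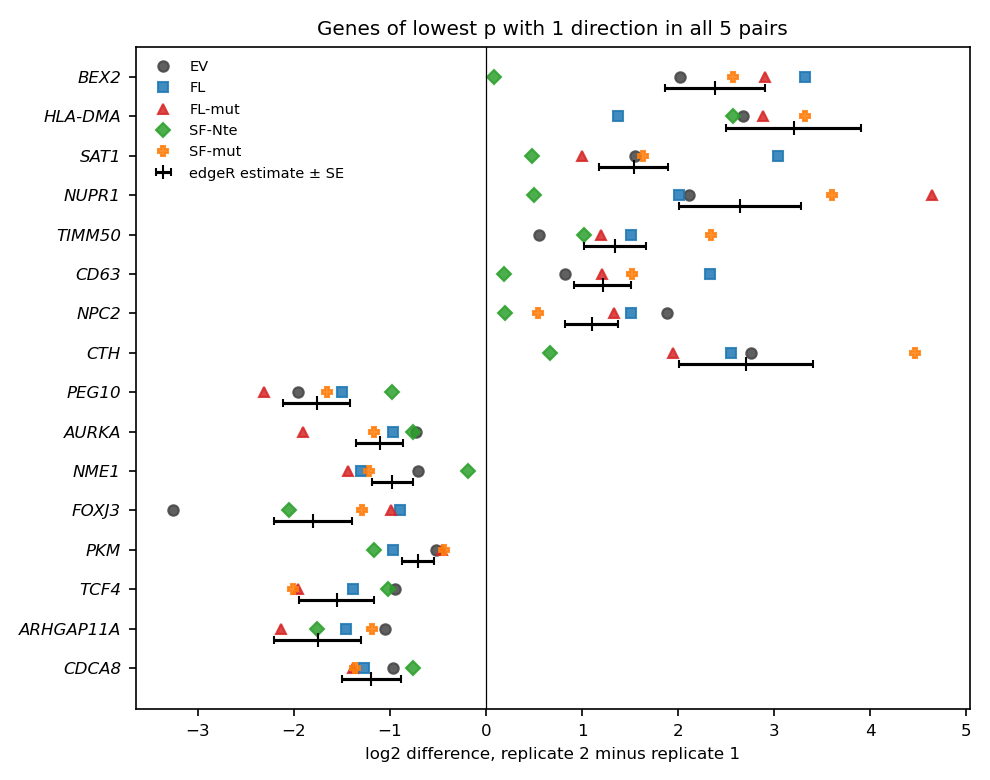
Log2 difference of replicate 2 minus replicate 1 (x axis) for the 8 genes of lowest p in each direction (y axis). Symbols are the 5 pairs and black bars the edgeR estimate ± SE; SF-Nte lies nearest to 0 for BEX2, NUPR1, CD63 and NPC2.

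The FL-mut and SF-mut pairs differed in the same genes, and no other 2 pairs did to that degree. Across the 4922 genes, the log2 differences of these 2 pairs had r = 0.53 (Spearman's rank correlation 0.52), and 69.6% of genes had the same sign. The other 9 combinations of pairs had r from -0.13 to 0.18. Over the 391 genes with at least 100 counts in all 10 libraries, r was 0.83 for FL-mut and SF-mut. The pairs share no library. Both pairs were more than 4-fold higher in replicate 2 for 215 genes (4.37%) and more than 4-fold lower for 58 (1.18%). The 215 were among 368 such genes in FL-mut and 452 in SF-mut, and the 58 among 180 and 506, while 11 genes were more than 4-fold apart in opposite directions.

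The 215 genes that were higher in both are described without a test, because they were chosen by these values. GPX4 (chr19:1103926-1106791, plus strand) encodes the selenium enzyme that reduces lipid peroxides and guards against ferroptosis. It was at 62.1, 4.25, 4.16, 47.2 and 0 CPM in replicate 1 of EV, FL, FL-mut, SF-Nte and SF-mut and at 31.6, 15.8, 2386, 0 and 2552 CPM in replicate 2. Only FL-mut 2 and SF-mut 2 of the 10 libraries were above 62.1 CPM; where GPX4 is at 0, 3 counts would be 5.02 CPM in SF-mut replicate 1 and 5.13 CPM in SF-Nte replicate 2. EMP3, a membrane glycoprotein, was at 57.5, 20.5, 6.25, 17.7 and 6.84 CPM and then 12, 22.4, 979, 5.79 and 1055 CPM. NDUFS7, an iron-sulphur subunit of respiratory complex I, was at 115, 21.2, 6.25, 11.8 and 53 CPM and then 13.5, 23.7, 956, 11.6 and 1199 CPM. Both had the same 2 high libraries as GPX4, and in both EV 1 was the next highest.

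BSG, or basigin, the chaperone of lactate transporters, was at 285, 85, 124, 122 and 61.5 CPM in replicate 1 and 109.9, 246, 3441, 112 and 2411 CPM in replicate 2. SLC3A2, the heavy chain of amino acid transporters, was at 67.8, 47.5, 20.8, 25.6 and 20.5 CPM and then 48.2, 14.5, 1130.4, 25.1 and 1002 CPM. Each of them again had its 2 highest levels in FL-mut 2 and SF-mut 2. COX5B of respiratory complex IV, APRT of adenine salvage, the complex I genes NDUFB11 and NDUFAF3, PAM16 of mitochondrial import and C19orf48 completed the genes with the largest root mean square difference over the 5 pairs among those at 100 CPM or more, from 3.29 for NDUFAF3 to 6.33 for GPX4. PAM16 shares its strand with the readthrough CORO7-PAM16, and NDUFB11 and NDUFAF3 overlap RBM10 and DALRD3 on the other strand. RNF130, a ubiquitin ligase, was the exception in this group: it was at 8.28, 29, 4.16, 5.90 and 22.2 CPM in replicate 1 and 544, 109, 11.6, 279.9 and 13.1 CPM in replicate 2, and so was high in EV 2 and SF-Nte 2. In the fit over 5 pairs, the differences of GPX4 (2.68 ± 2.61), EMP3 (1.75 ± 1.88) and NDUFS7 (1.72 ± 1.62) did not pass, with adjusted p from 0.82 to 0.83.

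Among the 58 genes more than 4-fold lower in both pairs were CLASP2, which stabilises microtubules, and ANLN, CENPF, HMMR and MKI67 of the list of G2 and mitosis. These were 4 of the 23 tested members of that list, beside 1.18% of all tested genes. CLASP2 was at 100.4, 283, 69.8, 15.7 and 73.5 CPM and then 266, 295, 6.97, 75.3 and 0 CPM, higher in replicate 2 of EV and SF-Nte and lower in FL-mut and SF-mut. CAV1, the coat protein of caveolae, and KPNA2, of nuclear import, were lower in both pairs by less than 4-fold. CAV1 was at 1013, 1224, 1256, 609 and 1515 CPM in replicate 1 and 513, 414, 428, 685 and 380.0 CPM in replicate 2, lower in 4 pairs and slightly higher in SF-Nte. KPNA2 was at 381, 471, 548, 456 and 786 CPM and then 357, 221, 142, 369 and 223 CPM.

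**Figure D3:**
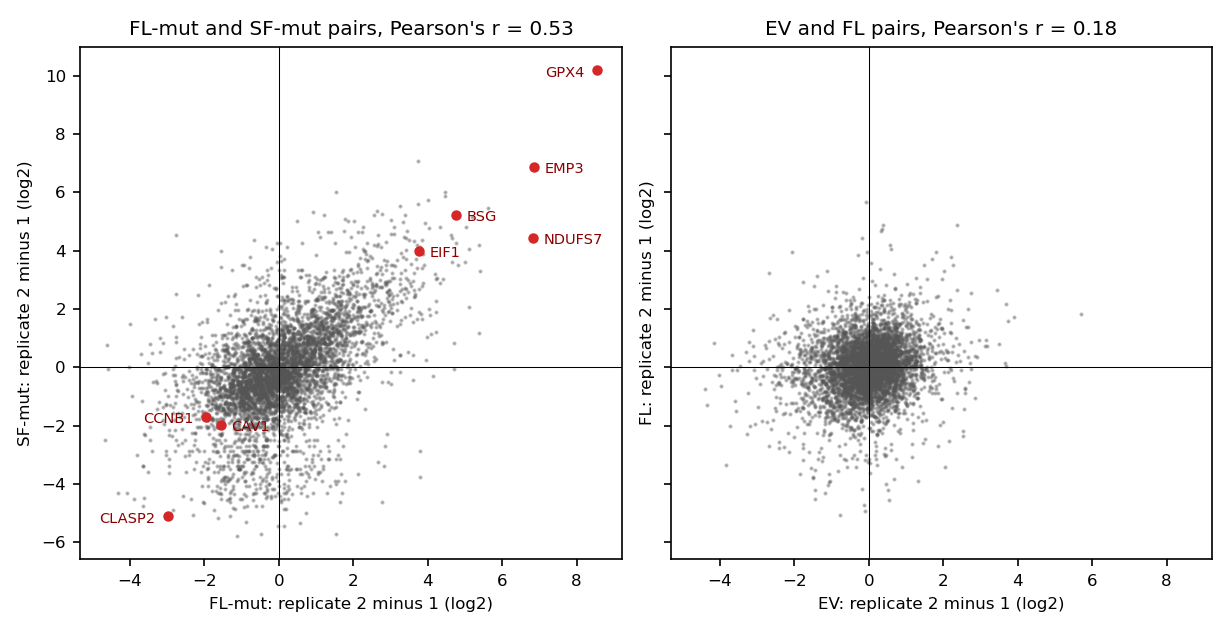
Log2 difference of replicate 2 minus replicate 1 for each of 4922 genes, FL-mut (x) against SF-mut (y) on the left and EV against FL on the right, with named genes in red. The left panel has r = 0.53 and the right r = 0.18.

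The 215 genes had short, GC-rich transcripts. The median length of their longest annotated transcript was 1852 bases and the median GC content 57.6%, against 2915 bases and 46.2% for all tested genes; the 58 lower genes had 4611 bases and 42.6%. On chromosome 19 lay 28 of the 215 (13.0%), beside 5.12% of all tested genes. The 215 genes took 8.98% of all counts in FL-mut 2 and 9.41% in SF-mut 2, against 0.994% and 0.955% in the replicate 1 partners. In the other 6 libraries compared the share lay between 0.783% and 2.51%, with the 2.51% in EV 1. In the EV pair, where replicate 1 had the larger share, these genes leaned towards replicate 1. Their median difference there was -0.83, and 160 of 215 were lower in replicate 2. Of all 4922 tested genes 2480 were lower there. In SF-Nte the median was -0.24, with 142 of the 215 lower, beside 2610 of all 4922. In FL it was 0.14, with 120 of the 215 higher, beside 2499 of all 4922.

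Over all genes, the difference within a pair followed GC content and length in a pair-specific way. Spearman's rank correlation between the log2 difference and GC content over 4851 genes was -0.25 in EV, -0.04 in FL, 0.26 in FL-mut, 0.29 in SF-mut and -0.16 in SF-Nte. For transcript length it was 0.09, 0.01 and -0.23 in EV, FL and FL-mut, -0.26 in SF-mut and 0.12 in SF-Nte. In the fifth of genes with the highest GC content (median 58.1%), the median log2 difference was 0.72 in FL-mut and 0.76 in SF-mut but -0.34 in EV and -0.22 in SF-Nte. In the fifth with the lowest (median 38.2%), it was -0.27 and -0.51 in FL-mut and SF-mut and 0.22 and 0.10 in EV and SF-Nte. The FL pair had no such slope. By library, the deviation of a gene from its mean over the 10 libraries was also correlated with GC content. Spearman's correlation was 0.24 in EV 1, 0.28 in FL-mut 2 and 0.31 in SF-mut 2, and from -0.25 to -0.09 in the other libraries. With gene and library offsets for GC content and length, 0 genes were called. The part of GC content, length, depth or barcode in the shared difference was not tested.

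**Figure D4:**
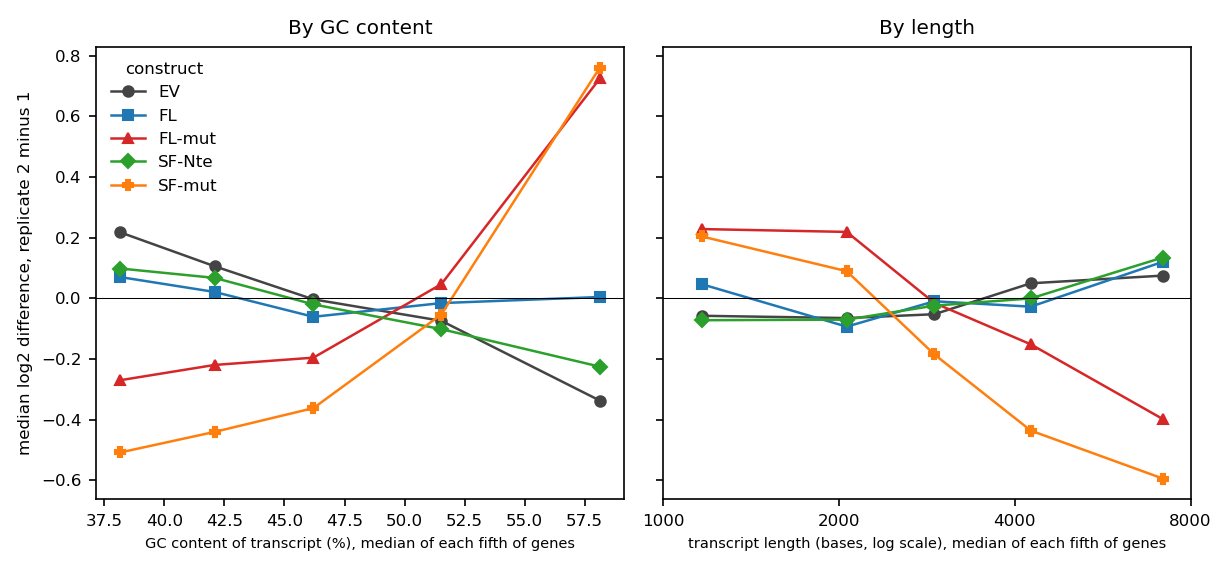
Median log2 difference of replicate 2 minus replicate 1 (y axis) in 5 equal groups of genes ordered by GC content (left, %) or transcript length (right, bases, log scale), with a line for each pair. FL-mut and SF-mut reach 0.72 and 0.76 in the fifth of highest GC content, where EV is at -0.34.

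Of the 24 lists, cell division, splicing, protein synthesis and the amino acid response had the most low-p members in a common direction, by number. Counts for each list are set beside the 2.91% of all genes that were higher and the 4.06% that were lower at an unadjusted p under 0.05. No member of any list passed after adjustment, and a member is counted as higher or lower in what follows only at that unadjusted p. Lists differ in length, and by share of members heat shock genes, with 5 of 12 lower and 1 higher, stood above translation factors and splicing. The short lists of metal response (2 of 6 higher), NF-kB (1 of 3 higher) and YAP and TGF-beta targets (2 of 7 lower) also stood above splicing. In the list of G2 and mitosis, 10 of 23 tested members were lower and 0 higher, and the median difference was -0.35 in EV, -0.69 in FL, -1.26 in FL-mut, -0.95 in SF-mut and 0.05 in SF-Nte. CCNB1, the cyclin of mitotic entry, was at 1007, 1626, 1384, 1284 and 1718 CPM in replicate 1 and 886, 764, 357, 1139 and 531 CPM in replicate 2, lower in each pair and by at most 0.18 in EV and SF-Nte. KIF23, a kinesin of cytokinesis, had a fitted difference of -1.10 ± 0.32, and MKI67, the proliferation marker Ki-67, one of -1.17 ± 0.62 (adjusted p = 0.70 for both). Without the FL-mut and SF-mut pairs, 3 of 24 members were lower and 0 higher, beside 3.05% and 2.27% of all genes. In bulk RNA, fewer cells in division, less RNA per cell and a technical difference between the libraries cannot be told apart. S phase genes had 2 of 19 lower and 0 higher, CDC45 of the replication helicase with -1.57 ± 0.42, and 1 of 19 lower without those 2 pairs.

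Genes of RNA splicing had 8 of 33 tested members lower and 0 higher, and translation factors 12 of 37 lower and 0 higher. Of the translation factors, however, EEF1D, EIF1, EIF2S2 and EIF3G are among the 215 genes more than 4-fold higher in replicate 2 of both FL-mut and SF-mut. These were 4 of the 37, beside 4.37% of all tested genes. HNRNPH1, an RNA-binding splicing regulator, was at 862, 984, 876, 694 and 1070.2 CPM in replicate 1 and 431, 567, 323, 662 and 557 CPM in replicate 2. EIF3B, a subunit of the initiation factor eIF3, was at 170.3, 64.5, 119.7, 41.3 and 99.2 CPM and then 76.7, 27.7, 58.1, 15.4 and 52.4 CPM, and was lower in each pair by 0.89 to 1.30. In splicing the median difference was -0.38 in EV and FL, -0.55 in FL-mut, -0.63 in SF-mut and -0.03 in SF-Nte. Without the FL-mut and SF-mut pairs, 4 of 33 splicing genes and 4 of 37 translation factors were lower and 0 higher. Proteasome subunits had 4 of 30 lower and 0 higher, PSMD13 with -0.49 ± 0.20. PSMD6 and PSMD8, 2 of those 30, are among the 215 genes, beside 4.37% of all tested genes. Glycolysis had 3 of 14 lower and 0 higher (PKM, ENO1 and TPI1). The lower members without those 2 pairs were 3 of 30 for the proteasome and 4 of 14 for glycolysis, with 0 higher in both. Heat shock genes were mixed, with 5 of 12 lower, among them HSPE1 (-0.82 ± 0.24) and HSPA8 (-0.81 ± 0.28), and DNAJB1 higher (1.37 ± 0.53); HSPE1 and HSPD1 overlap on opposite strands. Only 1 of 13 heat shock genes was lower, and 0 were higher, without those 2 pairs.

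Targets of ATF4 leaned the other way. Of 16 tested members, 7 were higher and 0 lower, and the median difference was 1.01 in EV, 0.12 in FL, 1.56 in FL-mut, 1.65 in SF-mut and -0.15 in SF-Nte. DDIT3, the stress factor CHOP, was at 148, 189.8, 289, 254 and 54.7 CPM in replicate 1 and 419, 2202, 762, 272 and 213 CPM in replicate 2, higher in each pair and least so in SF-Nte. ASNS, asparagine synthetase, was at 100.4, 194, 87.5, 564 and 103 CPM and then 493, 152, 497, 600.4 and 399.7 CPM, with replicate 2 higher in EV, FL-mut and SF-mut and the 2 libraries of FL and SF-Nte close. PHGDH, the first enzyme of serine synthesis, was at 168, 83.6, 91.6, 328 and 92.3 CPM and then 421, 174, 2343, 259 and 2031 CPM. PHGDH, PSAT1 and SLC3A2, 3 of these 16, are also among the 215 genes above, beside 4.37% of all tested genes. Without the FL-mut and SF-mut pairs, 3 of 16 members were higher and 0 lower, beside 2.27% and 3.05% of all genes. ER chaperones had 3 of 13 higher and 0 lower, and 1 of 13 higher without those 2 pairs, where the median of the fitted differences was 0.12 against 0.48. HERPUD1 and HSPA5, 2 of those 13, are among the 215 genes, beside the same 4.37% of all tested genes. HERPUD1, an ER stress gene, was at 34.7, 4.96, 38.5, 25.6 and 17.1 CPM and then 44.4, 179, 332, 42.5 and 157 CPM, and HSPA5, the chaperone BiP, had a fitted difference of 1.24 ± 0.50.

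Other lists had few members at that level. Interferon response genes had 2 of 9 higher and 0 lower (B2M, 0.77 ± 0.22, and PSMB8). Metal response genes had 2 of 6 higher and 0 lower (among them FTL, 0.70 ± 0.26). Nuclear oxidative phosphorylation had 0 of 46 higher and 1 lower (ATP5A1, -0.71 ± 0.21). Of those 46 members, however, 6 are among the 215 genes, beside 4.37% of all tested genes. Without the FL-mut and SF-mut pairs, 1 of 10 interferon response genes and 0 of 6 metal response genes were higher and 0 of either lower, and 0 of 47 genes of oxidative phosphorylation were higher and 3 lower. The mesenchymal and cytoskeletal list had 3 of 26 lower and 0 higher (CAV1, THBS1 and VIM), and 6 of 26 lower without the FL-mut and SF-mut pairs. YAP and TGF-beta targets had 2 of 7 lower (CTGF, -1.62 ± 0.56, and AXL), cholesterol synthesis 2 of 14 lower (among them ACAT2, -0.77 ± 0.33), NRF2 targets 1 of 16 lower (TXNRD1, -0.92 ± 0.28), and none of the 3 had a higher member. Cholesterol synthesis without the FL-mut and SF-mut pairs had 2 of 19 higher and 0 lower, with a median fitted difference of 0.46 against 0.0032 over 5 pairs. Lower members were then 1 of 9 for YAP and TGF-beta targets and 3 of 17 for NRF2 targets, with 0 higher. Fatty acid synthesis had 1 of 7 higher and 1 lower (ACLY, -0.92 ± 0.32), and the NF-kB list 1 of 3 higher (SOD2, 0.82 ± 0.26). Without those 2 pairs they had 1 of 9 and 1 of 4 higher and 0 lower. The lists of extracellular matrix, hypoxia outside glycolysis, immediate early genes, p53 targets and SPANX genes had 0 in either direction, with those 2 pairs and without them; their members of lowest p were TNC (-0.66 ± 0.37), P4HA2 (0.76 ± 0.34), FOSL2 (-1.11 ± 0.49), MDM2 (-0.31 ± 0.39) and SPANXC (-0.88 ± 0.48). Of 15 housekeeping references, B2M was higher and PPIA and TUBA1B were lower, and without those 2 pairs 1 was higher and 1 lower.

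**Figure D5:**
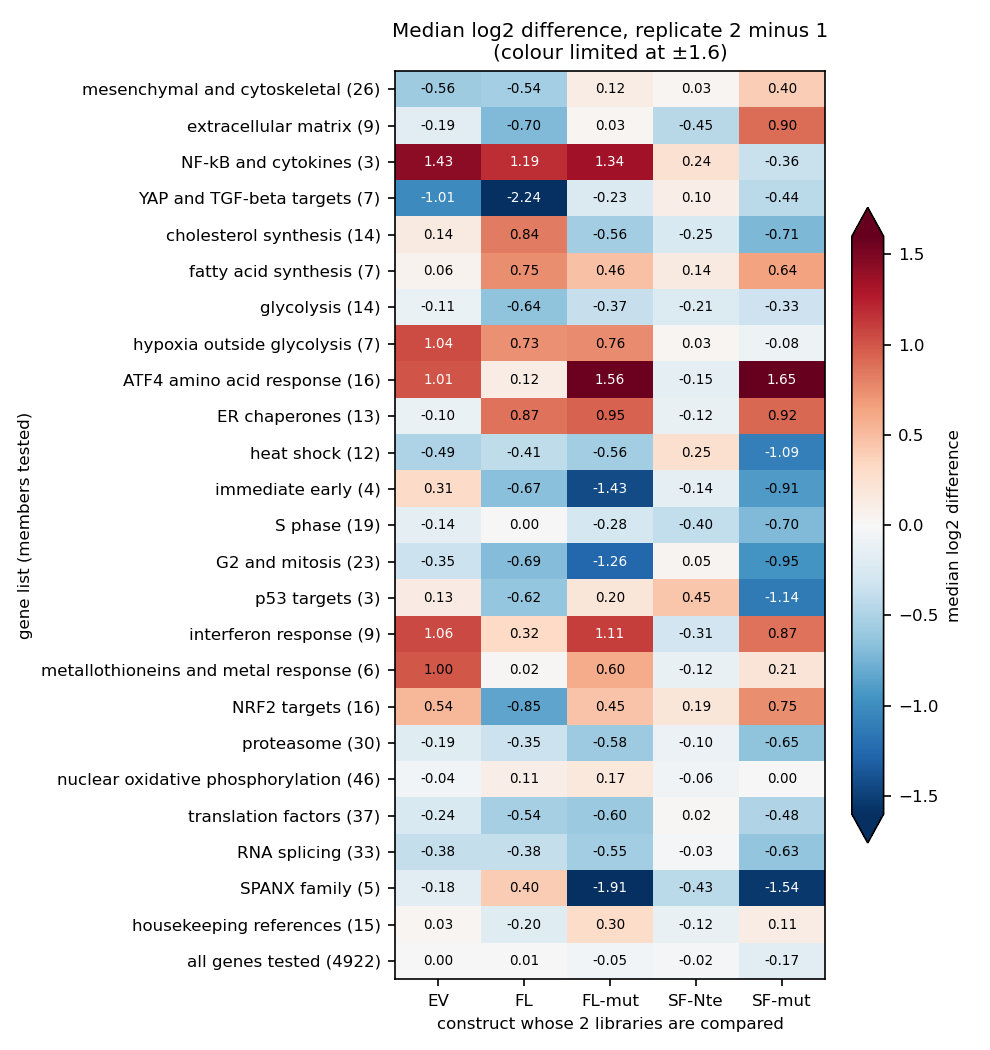
Median log2 difference of replicate 2 minus replicate 1 over the tested members of each gene list (rows, number of members in brackets) in each pair (columns), as colour limited at ±1.6 and as number. In the row of G2 and mitosis 4 pairs lie between -0.35 and -1.26 and SF-Nte at 0.05.

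Some genes barely differed between the libraries of any pair. Among the 1286 tested genes with a mean of at least 100 CPM, the median root mean square difference over the 5 pairs was 0.65 (log2). The smallest belonged to NDUFS5, an accessory subunit of complex I, at 0.07. It was at 1001, 1258, 847, 1364 and 957 CPM in replicate 1 and 1099, 1299, 802, 1367 and 963 CPM in replicate 2, and its libraries of a pair were within 0.13 of each other. AC099336.2, NDUFS4 of complex I, AP001324.1, RPN2 of the complex that attaches N-glycans and MRPL21 of the mitochondrial ribosome followed, with values from 0.09 to 0.12. GAPDH, a common reference gene, was at 24255, 29354, 26132, 45670.1 and 32427 CPM and then 25607, 14530.4, 21416, 40138 and 31429 CPM, level in EV and SF-mut and 1.01 (log2) lower in FL. PPIA, another reference, was 1.74 (log2) lower in replicate 2 of FL-mut.

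Genes named in an earlier account of these data for differences between constructs varied in how well the 2 libraries of a construct matched. S100A6, a calcium-binding protein of mesenchymal glioma cells, was at 13175, 1972, 5874, 9429 and 8141 CPM in replicate 1 and 14205, 1279, 6142, 7927 and 8511 CPM in replicate 2. Both FL libraries were the lowest, and the root mean square difference within pairs was 0.31. S100A4, the gene called between constructs (adjusted p = 0.032), was at 246, 13.5, 55.2, 570.0 and 325 CPM and then 366, 7.91, 54.6, 548 and 478 CPM, with the lowest levels in FL and FL-mut in both replicates. The chromatin protein HMGN3 had a root mean square difference of 0.34, the overlapping pair SQSTM1 and MRNIP 0.86 and 0.79, LGALS1 1.12, ZMYM3 1.13, CCL2 1.23, SPANXB1 1.24, S100A2 1.42 and PGRMC1 1.59, against 1.91 for FOXJ3.

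LGALS1, the galectin of mesenchymal glioma, was at 2458, 206, 636, 1962 and 2181 CPM in replicate 1 and 1342, 88.3, 2021, 2035 and 4832 CPM in replicate 2. FL-mut was thus below EV, 636 against 2458 CPM, in replicate 1 and above it, 2021 against 1342 CPM, in replicate 2. It was again below EV in replicate 3, at 1011 against 2277 CPM on the scaling of all 15 libraries. PGRMC1, a haem-binding membrane protein, was at 1934, 197, 113, 118 and 58.1 CPM and then 4639, 462, 39.5, 591 and 19.7 CPM, higher in replicate 2 of EV, FL and SF-Nte and lower in FL-mut and SF-mut. The chemokine gene CCL2 was at 85.4, 34, 15.6, 788 and 227 CPM and then 234, 7.91, 43, 610.1 and 177 CPM. SF-Nte was above EV in both of these replicates, while FL-mut was at 15.6 CPM in one and 43 CPM in the other. In replicate 3, on the scaling of all 15 libraries, EV was above SF-Nte, at 1563 against 729 CPM. None of these differences between replicates passed the test, with adjusted p from 0.70 for FOXJ3 to 0.999 for SPANXB1.

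Replicate 3 was set against the other numbers in a fit of all 15 libraries, where 5802 genes were tested. Replicate 3 against 1 gave 0 called genes (0%) and 544 (9.38%) at an unadjusted p under 0.05, and replicate 3 against 2 gave 0 (0%) and 495 (8.53%). Replicate 2 against 1 gave 0 (0%) and 578 (9.96%) in that fit, with a lowest adjusted p of 0.20. HLA-DMA and SAT1 had the lowest p of replicate 3 against 1, with differences of 3.50 ± 0.65 and 1.81 ± 0.35 (adjusted p = 0.21 for both). These contrasts share the libraries of each number, so they are given side by side and not combined. GPX4 was at 194 CPM in FL-mut replicate 3 on the scaling of all 15 libraries and at 5.83 CPM or less in the other 4 replicate 3 libraries.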

How the data were processed

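Poly(A) RNA of SNB19 cells was read in 15 libraries, 3 for each of 5 constructs. Per the labels' protocols, Trizol extraction and Dynabeads mRNA purification were followed by PCR barcoding and the cDNA-PCR kit of Oxford Nanopore. The values deposited by the authors are raw whole-number counts for each gene symbol and library. The submitters' processing notes give GRCh38 as the build. Aligner, counting software, strand setting and gene annotation: not given in the sources used here.

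From the deposited counts, replicate 2 was tested against replicate 1 in 10 libraries with edgeR 4.0.16 in R 4.3.3: filterByExpr by replicate number (minimum count 10, minimum total 15, at least 5 libraries), TMM scaling, robust quasi-likelihood, and terms for construct and replicate number. This left 4 residual degrees of freedom. Pairing is by construct, as the comparison itself sets it. Calls were made at a Benjamini-Hochberg adjusted p of 0.05 over all tested genes, and a standard error is the difference over the square root of F. Differences within a pair are log2 CPM of replicate 2 minus replicate 1 with a prior count of 2, and have no test. The fit was tested on simulated data. Total counts per library ranged from 315693 to 1930245, and any figure for counting error covers counting only.

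Positions, lengths and GC content came from GENCODE 29 (GRCh38), longest basic transcript per gene, matched by symbol for 17977 of 18485 symbols (97.3%). Alternatives were other scalings, filters and prior counts, DESeq2 1.42.0, limma voom 3.58.1, all 15 libraries, no pairing, GC and length offsets, each pair left out in turn and, added after seeing the data, the FL-mut and SF-mut pairs left out together, each pair centred at its median, and genes of at least 100 counts. The members and the lists were chosen with earlier results of these data known. Genes named are ZBTB18; since fewer than 6 genes passed, the 8 of lowest p in each direction with 1 sign in all 5 pairs; the 12 largest and 6 smallest root mean square differences at a mean of 100 CPM or more; the member of lowest p of each of 24 lists; and genes an earlier account named for construct differences. Other genes named, such as further list members, those more than 2-fold apart in all 5 pairs and genes of high or low level in FL-mut 2 and SF-mut 2, were chosen after their values were seen.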

Additional observations from a re-analysis of the deposited data

Results flagged for a closer look

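The 215 genes that were more than 4-fold higher in replicate 2 of both FL-mut and SF-mut also took more of the counts in a library outside the comparison. In FL-mut replicate 3 their share was 3.15%, against 0.792% to 2.51% in the 3 EV libraries and 0.953% in SF-mut replicate 3. The genes were chosen by the replicate 2 libraries, and the difference was not tested.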

How the results depend on the processing

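Replicate 2 against 1 kept 0 called genes by edgeR under both other scalings, filters by construct or at 10 counts in each library, GC and length offsets, all 15 libraries and each pair left out (0 to 0), and by limma voom. Without the replicate block (construct pairing dropped) it was 0, with a lowest adjusted p of 0.64. With no filter beyond 1 count it was 51 and with DESeq2 18. Leaving out the FL-mut pair gave a lowest adjusted p of 0.99 and leaving out the SF-Nte pair 0.13. Of the repeats for named genes, 521 kept direction and side of the threshold, 26 passed it (no filter or DESeq2) and 0 reversed. These genes were chosen for a low p in the same libraries, which favours a kept direction. DESeq2 called 51 genes for replicate 3 against 1, 18 for 3 against 2 and 142 for any construct. Leaving out 1 construct gave 0 to 2 for replicate 3 against 1 (2 without SF-Nte) and 0 to 3 for any construct, so S100A4 was called without EV but not without FL, FL-mut, SF-Nte or SF-mut. At 10 counts in each library, median absolute differences were 0.29 in SF-Nte and 0.64 in SF-mut, and 227 genes shared 1 direction (95 higher, 132 lower); without FL-mut and SF-mut 1442 did over 3 pairs. At 100 counts, r was 0.29 for EV and SF-Nte, -0.30 for FL-mut and SF-Nte and 0.83 for FL-mut and SF-mut. The cause of these shifts was not tested, beyond fewer genes or libraries. In SF-mut replicate 2, 3 counts are 9.50 CPM, which limits low genes.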

Other observations

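Selenium enzymes and their kin were counted in a list drawn up after GPX4 had been seen. Of 11 tested selenoproteins, GPX1, GPX4, SELENOH and SELENOS are among the 215 genes that were more than 4-fold higher in replicate 2 of both FL-mut and SF-mut, beside 4.37% of all tested genes. The median log2 difference of the 11 was 1.07 in FL-mut, 0.34 in SF-mut, 0.33 in FL, -0.20 in EV and -0.57 in SF-Nte. SELENOW, a small redox protein, and TXNRD1, thioredoxin reductase, were lower in replicate 2 of all 5 pairs, so the list did not share a direction. Over the 5 pairs, 1 selenoprotein (SELENOK, of the ER membrane) was higher and 1 (TXNRD1) lower at an unadjusted edgeR p under 0.05. Without the FL-mut and SF-mut pairs 0 of 11 were higher and 2 lower.

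HLA-C, a class I antigen heavy chain, had log2 differences of 1.86 in FL-mut and 3.17 in SF-mut and of 0.05 in EV, -0.55 in FL and -1.58 in SF-Nte. Near-identical HLA genes can share reads, so the split between them is uncertain. B2M, the light chain of class I antigens, was higher in replicate 2 of each pair, by 0.04 (log2) in SF-Nte to 1.46 in FL.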
